A study of Mus musculus with 4 samples.

Results

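Macrophages that carry high MHC class II were studied in 2 libraries of mouse testicular organoids (TOs) and 2 libraries of mouse testes. A cell was counted as a member when at least 4 of Ptprc, Cd68, C1qa, Adgre1, Lyz2, Tyrobp and Ctss were detected, C1qa, Lyz2 and Tyrobp together had at least 4 UMIs, and H2-Aa, H2-Ab1 and H2-Eb1 together reached 5 UMIs per 10000 UMIs of the cell. A UMI (unique molecular identifier) marks 1 captured RNA molecule. Of 41484 cells that passed the filters, 200 were members, and another 1393 met the macrophage criteria but not the class II criterion and are called the low MHC class II macrophages. The members were thus picked on measured values of these 10 genes, and their levels are given as a description only.

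The TOs were reconstituted from dissociated testis cells of neonatal ICR mice and cultured in extracellular matrix on inserts, from which they were later recovered. Their medium held serum replacement, testosterone, follicle-stimulating hormone, ascorbic acid 2-glucoside, alpha-tocopherol acetate and glutathione, none of which was given to the testes, so culture and these additives cannot be told apart. The series' design gives 28 days as the age of both the TOs and the mice whose testes were dissociated, as does the study's text, whereas the dissociation protocol in the labels names TOs of day 21. The groups carry no engineered allele, cells were unsorted, and per the study's text the TOs came from 2 independent batches and the testes were 2 biological replicates. The labels do not tie a library to an animal or batch, so p-values measure the spread between these libraries. The deposited matrices held 14643 and 12491 barcodes with 106577822 and 119966959 UMIs for TO replicates 1 and 2, and 12179 and 11826 barcodes with 77016449 and 74988295 UMIs for testis replicates 1 and 2.

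Macrophages are the most abundant immune cells of the testis. Those of the interstitium, close to Leydig cells, are mostly long-lived cells with high CSF1 receptor and low MHC class II, whereas those on the surface of the tubules carry more MHC class II and are replenished from bone marrow-derived cells after birth. MHC class II molecules present peptides from the endosome and lysosome to CD4+ T cells. H2-Aa and H2-Ab1 encode the alpha and beta chains of I-A, H2-Eb1 encodes the beta chain of I-E, Cd74 encodes the invariant chain that escorts them, and H2-DMa and H2-DMb1 encode the chaperone that loads the peptide.

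The class II genes chosen by the rule lie side by side on chromosome 17 of GRCm38 in the GENCODE vM21 annotation, with H2-Ab1 at chr17:34257689-34269419 on the plus strand, H2-Aa at chr17:34282744-34287823 on the minus strand and H2-Eb1 at chr17:34305867-34316674 on the plus strand. All are protein-coding. Their promoters share a conserved SXY module that recruits the transactivator CIITA, and its Y box holds the letters ATTGG or, on the other strand, CCAAT. The 150 bases before the start site are shown because the module sits there (RefSeq, GRCm38.p6). Capitals mark ATTGG or CCAAT in the promoters of H2-Aa (chr17:34287824-34287973, minus strand), H2-Eb1 (chr17:34305717-34305866, plus strand) and H2-DMb1 (chr17:34153041-34153190, plus strand).
H2-Aa: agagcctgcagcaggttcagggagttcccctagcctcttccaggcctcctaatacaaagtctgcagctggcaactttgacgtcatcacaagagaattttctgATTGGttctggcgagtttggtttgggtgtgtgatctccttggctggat
H2-Eb1: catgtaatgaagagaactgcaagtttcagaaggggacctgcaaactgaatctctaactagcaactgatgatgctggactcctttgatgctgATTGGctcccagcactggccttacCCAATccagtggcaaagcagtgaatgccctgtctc
H2-DMb1: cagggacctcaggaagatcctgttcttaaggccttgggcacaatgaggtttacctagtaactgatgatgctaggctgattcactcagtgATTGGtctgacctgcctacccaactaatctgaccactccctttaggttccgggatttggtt
A match began 48 bases before the start site in H2-Aa, 59 in H2-Eb1 and 61 in H2-DMb1, and H2-Eb1 had another match in the reverse orientation. Of 5 class II genes searched, 4 had a window and 3 held the letters, and of 27025 promoters searched over the same length 6828 did, or 25.3%. The window of H2-DMa had no match, and H2-Ab1 was named only. A match of 5 letters is a description of these windows and not evidence of binding.

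The 4 libraries contributed unequally. TO replicate 1 held 6 members with 31267 UMIs in all and TO replicate 2 held 123 with 785108, so the TO values rest mainly on replicate 2. Testis replicates 1 and 2 held 27 and 44 members with 70022 and 120253 UMIs. A member had a median of 4920.5 and 5839 UMIs in the TO libraries and 2403 and 2361 in the testis libraries, so that a gene of the same level was less often seen in a single testis cell. The median share of mitochondrial UMIs in a member was 2.99% and 4.03% in the TO libraries and 1.46% and 1.41% in the testis libraries, and its part in the differences between TO and testis members was not tested. Between 30 and 55 barcodes were shared by any pair of libraries, and none of the shared barcodes was a member in both.

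The members carried macrophage markers in both conditions. Values are CPM, the UMIs of a gene per 1000000 UMIs summed over the members of a library. Csf1r, the receptor for the growth factor that maintains macrophages, had 416 and 555 CPM in the TO members and 257 and 274 CPM in the testis members, and after each cell was thinned to 1500 UMIs it had a UMI in at most 0.232% of the other cells of a library. Cd74, which the rule did not use, had 5885 and 3202 CPM in TOs and 4327 and 7019 CPM in testes. C1qa, a rule gene given as a description, was detected less evenly in testis replicate 1. It was seen in 20 of 27 members there, against 43 of 44 in testis replicate 2 and every member of both TO libraries.

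Several defining genes of other leukocytes had no UMI in any member, while Ighm, Csf3r, Batf3, Itgax and, in testis members, the monocyte gene Ccr2 were detected. Of 10 dendritic cell genes, Clec9a and Ccr7 had no UMI in any member. Flt3, the receptor that defines dendritic cell progenitors and their progeny, was seen in 1 of the 200 members, Xcr1 in 1 and Cd209a in 2, all in testis libraries. Of the list, 1 gene was tested, and it was called lower in TO members. The list summed to 224 and 51.0 CPM in TO members and 214 and 233 CPM in testis members. In testes the list had 112.5 and 91.7 CPM in the low class and 205 and 192 CPM in the other cells, both below the members. Its most abundant gene was Itgae, whose share of testis members with a UMI after thinning, 18.5% and 20.5%, was below the 22.9% and 24.8% of the other testis cells. Irf4 and Batf3 had a UMI in 5 and 18 of the 200 members, Itgax in 12 and Zbtb46 in 7. Cd79a of B cells, Cd3e, Cd3g, Trbc2 and Nkg7 of T or NK cells, S100a9, Retnlg and Ly6g of neutrophils, the 4 mast cell genes, and Ly6c2 of monocytes had no UMI in any member. The 5 monocyte genes, however, summed to 0 and 115 CPM in TO members and to 271 and 490.6 CPM in testis members, against 42.9 and 18.3 CPM in the low class and 40.9 and 36.5 CPM in the other cells of testes. Their most abundant gene was Ccr2, which is described with the genes lower in TO members. The part of monocytes and of dendritic cells in the results was not tested. The B cell gene Ighm had a UMI in 53 members and the neutrophil gene Csf3r in 26, while their lists summed to at most 143 and 64.0 CPM in a library.

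RNA of spermatids was present in the testis members and near 0 in the TO members. Prm1, a protamine that packs sperm DNA, had 0 and 0 CPM in TO members and 2099 and 6719 CPM in testis members. The 6 spermatid genes summed to 0 and 2.55 CPM in TO members and to 4956 and 19510 CPM in testis members, and Prm1 had a UMI in 92.6% and 97.7% of testis members after thinning, against 84.3% and 95.2% of all other testis cells. Ddx4 and Dazl of germ cells summed to 128 and 28.0 CPM in TO members and to 114 and 224.5 CPM in testis members, and the 3 spermatocyte genes to 64.0 and 12.7 CPM and to 99.97 and 41.6 CPM, so that these lists overlapped. From 31 genes of other cell types, RNA from other cells was estimated at 11.1% and 19.1% of the UMIs of TO members and at 54.4% and 29.6% of those of testis members. Beyond a subtraction of that background, given beside the counts, its part in the gene results was not tested. Dcn, Col1a1 and other stromal genes summed to 224 and 1503 CPM in TO members and to 129 and 0 CPM in testis members.

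**Figure D1:**
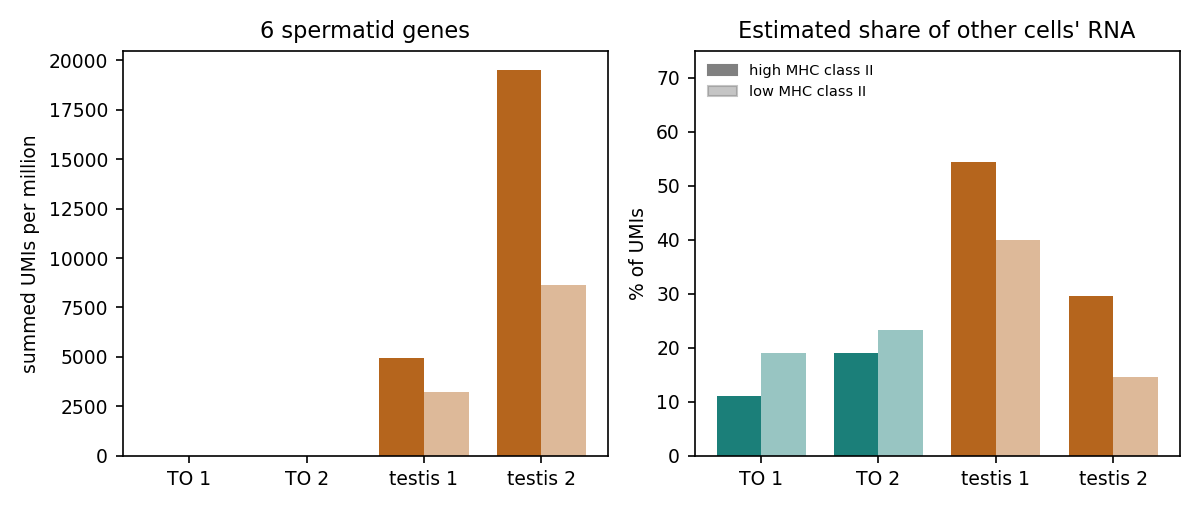
Left, summed CPM of 6 spermatid genes; right, estimated percent of UMIs that came from other cells, for high (solid bars) and low (pale bars) MHC class II macrophages of TO replicates 1 and 2 and testis replicates 1 and 2. Spermatid RNA was near 0 in TOs and reached 19510 CPM in the members of testis replicate 2, and the estimated share was highest, at 54.4%, in the members of testis replicate 1.

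Members made up 0.0558% of kept cells in TO replicate 1 (exact Clopper-Pearson 95% confidence interval 0.0205 to 0.121%), 1.30% in TO replicate 2 (1.08 to 1.55%), 0.250% in testis replicate 1 (0.165 to 0.363%) and 0.421% in testis replicate 2 (0.306 to 0.564%). These intervals cover counting error only. The TO replicates stood below and above both testis replicates, so the groups overlapped. TOs averaged 0.678% ± 0.880 (SD, n = 2) and testes 0.335% ± 0.121 (SD, n = 2), and the difference of 0.343 percentage points was within the spread of replicates (exact two-sided permutation p = 1, where 0.333 is the smallest p the design allows). It was 0.965 percentage points without TO replicate 1 and -0.280 without TO replicate 2.

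As a share of all cells that met the macrophage criteria, members were 1.81% (0.668 to 3.90%) and 14.8% (12.5 to 17.4%) in TO replicates 1 and 2 and 10.3% (6.88 to 14.6%) and 25.9% (19.5 to 33.2%) in testis replicates 1 and 2. TOs averaged 8.33% ± 9.21 and testes 18.1% ± 11.0 (SD, n = 2 each), a difference of -9.75 percentage points (exact two-sided permutation p = 0.667). Macrophages of both classes were 3.08% and 8.76% of kept TO cells and 2.43% and 1.63% of kept testis cells. Neither share separated TOs from testes beyond the distance between the TO replicates.

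**Figure D2:**
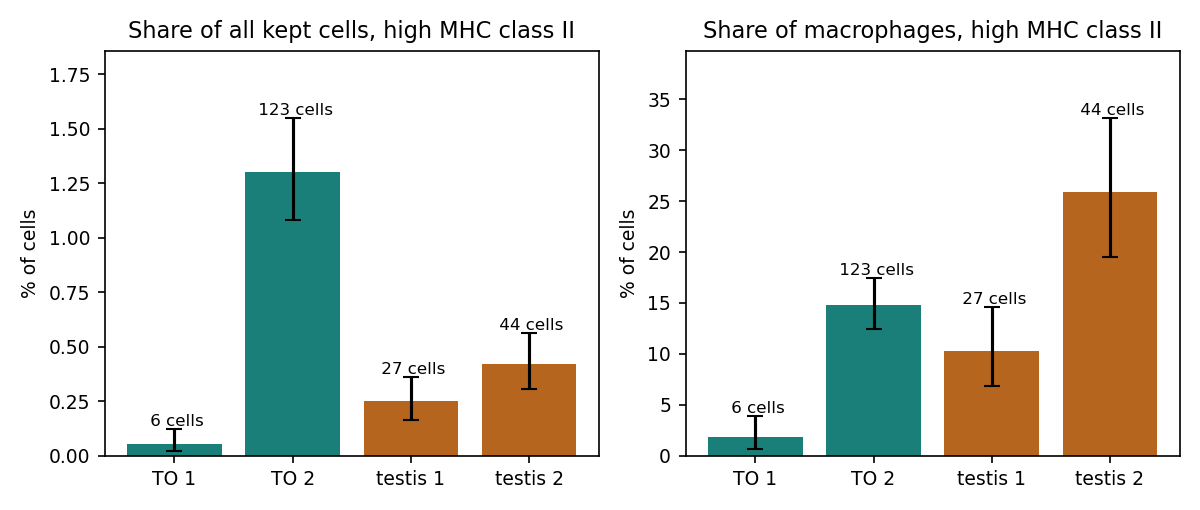
Percent of all kept cells (left) and of all macrophages (right) with high MHC class II in each library, with exact 95% confidence intervals and the number of members above each bar. TO replicate 2 has the highest share of kept cells (1.30%) and testis replicate 2 the highest share of macrophages (25.9%), while TO replicate 1 is lowest in both.

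The amount of class II RNA varied widely among members. The summed H2-Aa, H2-Ab1 and H2-Eb1 UMIs per 10000 had medians of 48.9 and 19.9 in TO replicates 1 and 2 and of 23 and 63.5 in testis replicates 1 and 2. The middle 50% of the members ran from 19 to 64.1, 11 to 39.1, 12.4 to 51.1 and 34.5 to 99.2 in the same order, and the highest member had 110, 155, 279 and 299. Above 100 per 10000 there were 1 and 9 TO members and 4 and 11 testis members. At the threshold, the lowest members had 8.92, 5.02, 6.2 and 8.52 per 10000 and the highest cells left out had 4.93, 4.99, just under 5 and 4.97, so that the line passed through a continuous range in TO replicate 2. The lowest class II count of a member was 3, 2, 1 and 2 UMIs. Among the low class, 97.5%, 85.7%, 90.7% and 94.4% of cells had no class II UMI.

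**Figure D3:**
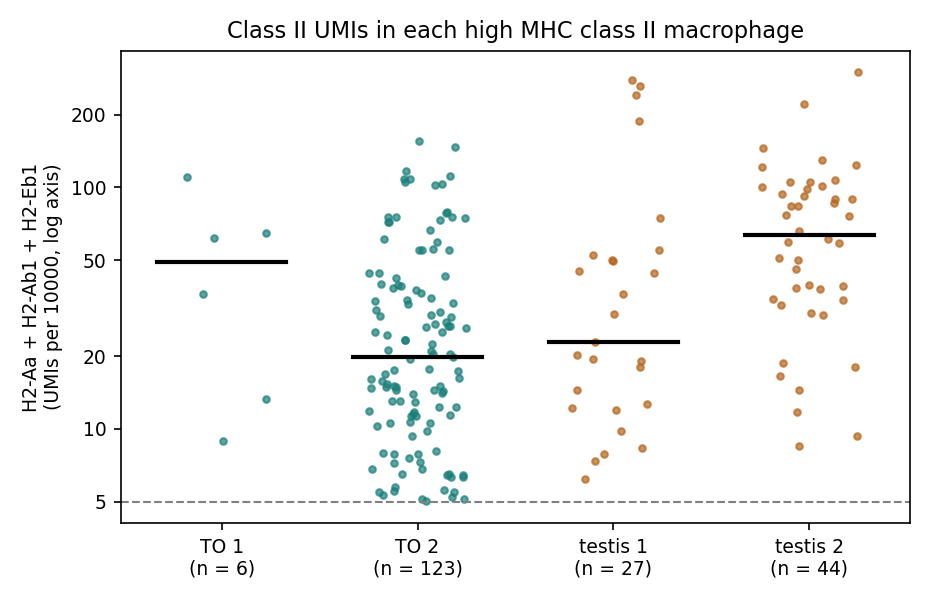
UMIs of H2-Aa, H2-Ab1 and H2-Eb1 per 10000 UMIs in each member (points, log axis) of the 4 libraries, with the median (black bar) and the threshold of the rule at 5 (dashed line). Medians run from 19.9 in TO replicate 2 to 63.5 in testis replicate 2, and the ranges overlap in all libraries.

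The single class II genes showed the libraries to differ as much as the conditions. H2-Aa had 3710 and 1823 CPM in TO members and 3185 and 4590 CPM in testis members. H2-Ab1 had 768 and 423 CPM in TOs and 1128 and 2619 CPM in testes, and was higher in both testis libraries. H2-Eb1 had 1151 and 749 CPM in TOs and 1214 CPM in testis replicate 1, but 199.6 CPM in testis replicate 2, where H2-Aa and H2-Ab1 were highest. Cd74 overlapped between the groups and its change was not called (log2 fold change TO over testis -0.39, SE 0.50, adjusted p = 0.626).

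Differences between TO and testis members were tested on the summed UMIs with the edgeR quasi-likelihood test, and calls needed an adjusted p (Benjamini-Hochberg) under 0.01 and an absolute log2 fold change above 1. Of 2034 genes tested, 102 were higher in TOs (5.01%) and 418 were lower (20.6%). The median log2 fold change over all genes tested was -0.01. Without TO replicate 2 the counts were 50 and 143, and without testis replicate 2 they were 44 and 191. After the estimated RNA of other cells was subtracted, only Fabp5, Ctsl and Prm1 were called. Of the 102 higher genes, 87 still had a value after the subtraction, and their log2 fold changes were above 1. The part of background RNA in the lost calls was not tested. Of the 418 lower genes only 57 still had a value, of which 52 stayed below -1, so most of the lower calls could not be checked in this way.

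The lists of lipid-handling macrophages and of iron and haem had the largest shares of genes higher in TO members (76.5% and 75%). Of 24 lipid-handling genes, 17 passed the filter on low counts and 13 were higher in TOs (76.5%, against 5.01% of all genes), with none lower. Their median log2 fold change was 3.26. The filter required about 105 CPM in 2 libraries, and 9 of the 17 reached it in the TO libraries alone. Those 9 could pass only by being higher in TOs, so the share of 76.5% is a description. The list summed to 51880 and 33500 CPM in TO members and to 8869 and 4208 CPM in testis members. The groups did not overlap, but the share of all genes without overlap was not counted. The background-subtracted count was 1 and that of DESeq2 was 8.

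Apoe, which carries cholesterol and other lipids, had 34130 and 22620 CPM in TO members and 6427 and 2170 CPM in testis members (log2 fold change 2.69, SE 0.66, adjusted p = 0.00142). Apoe was called without either TO replicate, but not without testis replicate 1 (3.59), without testis replicate 2 (2.13) or with the background subtracted (2.23). Fabp5, a fatty acid binding protein, had 2015 and 1321 CPM in TOs and 28.6 and 33.3 CPM in testes. Its log2 fold change was 5.63 (SE 0.58, adjusted p = 2.51e-09) and ranged from 4.95 to 6.81 under the 18 alternatives, each of which called it. Some of these alternatives reused the main fit and could not lose the call.

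Cd36, a scavenger receptor that takes up fatty acids and oxidised lipoproteins, had 1247 and 501 CPM in TOs and 14.3 and 41.6 CPM in testes (log2 fold change 4.62, SE 0.63). Lgals3, the lectin galectin-3, had 2271 and 847 CPM against 157 and 141 CPM (3.26, SE 0.50). Cd63, a tetraspanin of late endosomes, had 2878 and 2079 CPM against 328.5 and 116 CPM (3.50, SE 0.51). The TO libraries were above the testis libraries in each case, and the adjusted p-values were 3.41e-07, 2.83e-06 and 9.31e-07. These genes were named because they were called, so this order of the libraries is a description.

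Gpnmb, a glycoprotein of lysosome-rich macrophages, had 27 and 124 UMIs in TO members and none in testis members, which makes it at least 11.7-fold higher in TOs over the pooled members (a floor of 3 UMIs over the group). Trem2, a lipid-sensing receptor, and Lpl, lipoprotein lipase, were also higher in TOs, with log2 fold changes of 3.52 (SE 0.48) and 3.44 (SE 0.52). Lipa, Plin2, Msr1, Mmp12 and Syngr1 were the other genes called in the list, of which Mmp12 (2.89) was called under 9 of 16 alternatives, with 1.61 (no call) without testis replicate 2 and 9.27 without testis replicate 1. Syngr1 (4.14) was at 9.93 without testis replicate 1. Npc2, which moves cholesterol out of the lysosome, had 1407 and 1032 CPM in TOs and 771 and 674 CPM in testes and was not called (0.69, SE 0.41, adjusted p = 0.215).

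Lysosome genes followed the same order. Of 29 genes, 21 were tested and 8 were higher in TOs (38.1%, against 5.01% of all genes), none lower, with a median log2 fold change of 1.31. Of the 21, 3 (Ctsl, Lipa and Atp6v0d2) reached the filter in the TO libraries alone, so they could be tested only by being higher there. The share of 38.1% is thus a description. The list summed to 29420 and 20590 CPM in TO members and 7912 and 5879 CPM in testis members. The cathepsins are proteases of the lysosome. Ctsb had 6460 and 3220 CPM in TOs and 828 and 258 CPM in testes (log2 fold change 3.14, SE 0.54, adjusted p = 1.7e-05). Ctsd had 2878 and 1737 CPM against 228.5 and 41.6 CPM (4.17, SE 0.57, adjusted p = 3.16e-07). Ctsl had 1503 and 1097 CPM against 57.1 and 58.2 CPM (4.41, SE 0.52, adjusted p = 2.23e-08). For each of these, the lowest TO library was over the highest testis library, which is a description since they were named because they were called. Ctsl was also at 1604 and 1228 CPM in the other TO cells, above the members.

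Lipa, the acid lipase that frees cholesterol from its esters, had 959.5 and 568 CPM in TOs and 71.4 and 24.95 CPM in testes (log2 fold change 4.00, SE 0.58). Psap, the precursor of the saposins that help break down sphingolipids, had 5117 and 2574 CPM against 1114 and 782 CPM (1.96, SE 0.47). Atp6v0d2, a subunit of the proton pump of the lysosome, had 112 UMIs in TO members and none in testis members, at least 8.70-fold higher. Ctsz and Cd63 completed the 8. Psap lost its call without either testis library (2.15 and 1.75) and Atp6v0d2 without testis replicate 2, at a fitted log2 value of 8.44 against 8.18 with every library. The count was 5 without testis replicate 2 and 1 with the background subtracted.

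Of 14 genes of iron and haem, 8 were tested and 6 were higher in TOs (75%, against 5.01% of all genes), with a median log2 fold change of 2.66. Of the 8, 2 reached the filter in the TO libraries alone, so they could be tested only by being higher there. The share of 75% is thus a description. Ferritin stores iron. Its heavy chain Fth1 had 32330 and 15440 CPM in TO members and 3770 and 2678 CPM in testis members (log2 fold change 2.84, SE 0.62, adjusted p = 0.000419), and its light chain Ftl1 had 7644 and 6944 CPM against 2499 and 1530 CPM (1.83, SE 0.50, adjusted p = 0.00395). Tfrc, the transferrin receptor that imports iron, had 101 UMIs in TO members and 1 in testis members, a pooled ratio of 23.5 (95% counting interval 4.13 to 939). Blvrb, a biliverdin reductase, Hmox1, haem oxygenase 1, and Slc11a1, an exporter of iron from the phagosome, were the others, of which Blvrb (2.92) was at 4.99 without testis replicate 1 and at 1.88, with no call, without testis replicate 2. The list had 0 calls without testis replicate 2, 3 without testis replicate 1, 3 with DESeq2 and 0 with the background subtracted, so its count rested on both testis libraries. Fth1 and Ftl1 each lost the call without testis replicate 1 (3.03 and 2.15) and without testis replicate 2 (2.64 and 1.55). Their folds stayed near those with every library. In such fits the testes are a single library, so only the TO libraries give the spread.

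**Figure D4:**
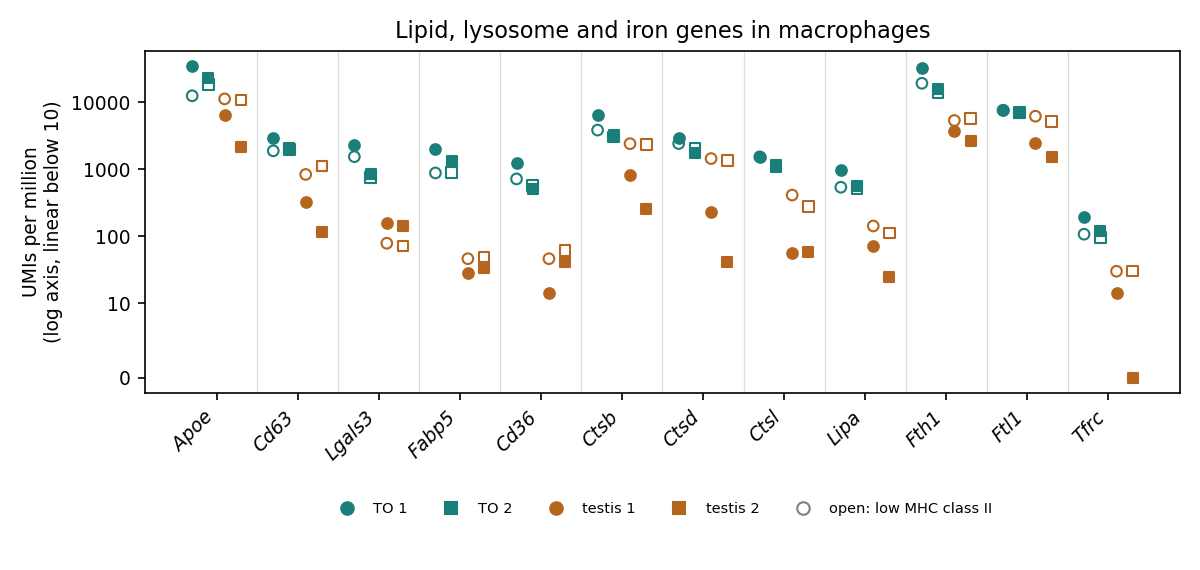
CPM of 12 lipid, lysosome and iron genes in high (filled) and low (open) MHC class II macrophages of TO replicate 1 (green circles), TO replicate 2 (green squares), testis replicate 1 (brown circles) and testis replicate 2 (brown squares), on a log axis that is linear below 10. The genes shown are among those called higher in TO members. Filled brown symbols lie under both filled green symbols for every gene, and for Ctsd they lie at 228.5 and 41.6 against 2878 and 1737.

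Of the other genes of largest fold, Clec4d, a C-type lectin receptor, had 167 UMIs in TO members and none in testis members, at least 13-fold higher, and Cd300lb had 119 and none, at least 9.25-fold higher. The transcription factor St18 had 304 UMIs against 2, a pooled ratio of 35.4 (95% counting interval 9.72 to 294). Lyz1 had 135 UMIs against 2 (15.7, 4.27 to 131), and its near-identical copy Lyz2, a rule gene, had 34250 and 22480 CPM in TOs and 2699 and 2603 CPM in testes, so reads could have been split between the copies. Serping1, an inhibitor of complement, and Smpdl3a, a phosphodiesterase, were the remaining genes of largest fold, but Serping1 was higher still in the other TO cells (833 and 759.7 CPM against 192 and 195 CPM in members).

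Genes lower in TO members were mostly more abundant in the other cells of the testis. Of the 418, 397 (94.98%) had a higher CPM in the other testis cells than in the testis members, against 25.8% of the genes that were not called. In TOs, 331 of the 418 (79.2%) were higher in the other cells than in the members, against 48.7% of the genes not called. The 12 of largest fold were Prm1, Tnp2, Tnp1, Prm2, Smcp, Gm3417, Fam229a, Prm3, Akap4, Cypt4, Rnf151 and Scp2d1. The first 5 and Akap4 encode parts of sperm chromatin or of the sperm tail. Prm1 was at least 1370-fold lower in TO members, and Tnp1 and Tnp2, the transition proteins that precede the protamines, were at least 423-fold and 513-fold lower. Over both testis libraries together, each of the 12 was also higher in the other testis cells than in the members, although Akap4 had 214 CPM in the members and 192 CPM in the other cells of testis replicate 1.

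Another 21 genes that were lower in TOs were higher in the testis members than in the other testis cells, and they were singled out after their values were seen. Ccr2, the chemokine receptor by which monocytes leave the blood, had 0 and 24 UMIs in TO members (0 and 30.6 CPM) and 19 and 58 UMIs in testis members (271 and 482 CPM), a log2 fold change of -3.77 (SE 0.61, adjusted p = 5.16e-06). After thinning it was detected in 0 of 6 and 4.88% of TO members (95% interval 1.81 to 10.3%) and in 25.9% (11.1 to 46.3%) and 50% (34.6 to 65.4%) of testis members, against 0.123% and 0.214% of other testis cells. The count of 0 among 6 cells allows a share of cells with a UMI of up to 50%, taking 3 counts as its limit. Ccr2 was not called without testis replicate 2 (-3.26) or with the background subtracted (-4.16).

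Lsp1, a protein of the leukocyte cytoskeleton, had 0 and 22.9 CPM in TO members and 243 and 333 CPM in testis members (log2 fold change -3.76, SE 0.63, adjusted p = 9.4e-06), without a call when testis replicate 2 was left out (-3.51). Ifi27l2a, an interferon-induced gene, had 0 and 25.5 CPM against 585.5 and 224.5 CPM (-4.03, SE 0.65, adjusted p = 5.04e-06). Tgfbi, a matrix protein made by monocytes and macrophages, had 0 and 62.4 CPM against 143 and 291 CPM (-2.04, SE 0.58, adjusted p = 0.00556) and was called under only 7 of 17 alternatives, with -1.71 without TO replicate 1, -1.45 without testis replicate 2 and -7.06 without TO replicate 2. In all of them TO replicate 1 had no UMI, and without TO replicate 2 the values of Ccr2, Lsp1 and Ifi27l2a were -7.84, -7.44 and -7.85. Mgl2, a lectin of some dermal and tissue macrophages, reached 1006 CPM in testis replicate 2 but 57.1 CPM in testis replicate 1, against 0 and 6.37 CPM in TOs, and did not pass the filter.

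Other immune gene lists held 0 to 2 calls each, against 5.01% of all genes higher and 20.6% lower, and 1 call in a list of 10 or 13 is near these shares. Apart from Lgmn, the genes called in them (Gas6, C5ar1, Clec4d, Ccl6, Cebpb, Ccr2 and Ifi27l2a) reached the filter only in the condition where they were higher, so they could be tested only by differing in that direction and their counts are a description. Of the other class II pathway genes 5 were tested and Lgmn, a lysosomal endopeptidase, was higher in TOs (1599 and 1918 CPM against 571 and 640.3 CPM, log2 fold change 1.52, SE 0.42, adjusted p = 0.00482). Lgmn was called under only 8 of 18 alternatives, and not without TO replicate 2 (1.34), testis replicate 1 (1.38) or testis replicate 2 (1.65), with DESeq2 (1.43) or with the background subtracted (1.11). By contrast, H2-DMa was higher in both testis libraries (328.5 and 241 CPM against 64.0 and 106 CPM) without a call (-1.52, SE 0.52, adjusted p = 0.0238). Of 8 MHC class I genes and 4 co-stimulation genes tested, none was called. H2-K1, a class I heavy chain, had 2367 and 1106 CPM in TOs and 1285 and 1247 CPM in testes, and Cd86, a ligand of CD28 on T cells, had 288 and 168 CPM against 399.9 and 125 CPM. Both overlapped between the groups.

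Of 10 efferocytosis genes tested, Gas6, a bridge between dying cells and their receptors on macrophages, was higher in TOs (672 and 544 CPM against 71.4 and 49.9 CPM, log2 fold change 3.30, SE 0.54), but it was higher still in the other TO cells (1384 and 1158 CPM) and was not called with a class II threshold of 3 (1.67). Of 7 complement genes tested, C5ar1, the receptor for C5a, was higher in TOs (384 and 372 CPM against 42.8 and 33.3 CPM, log2 fold change 3.30, SE 0.60, adjusted p = 3.22e-05), and C1qb and C1qc, subunits of C1q, were not called. Of 7 inflammatory genes tested, Clec4d was the only one called. Of 10 chemokine and receptor genes tested, Ccl6 was higher in TOs (799.6 and 149 CPM against 28.6 and 24.95 CPM, log2 fold change 3.73, SE 0.81) and Ccr2 lower. Cx3cr1, the fractalkine receptor, had 96.0 and 418 CPM in TOs and 257 and 449 CPM in testes and was not called (-0.20, SE 0.49, adjusted p = 0.83). Of 4 interferon genes tested, Ifi27l2a was lower, and of 13 growth factor receptor and lineage genes Cebpb, a transcription factor of myeloid cells, was higher (256 and 545 CPM against 85.7 and 99.8 CPM, log2 fold change 2.22), but not without TO replicate 2 (1.37) or testis replicate 1 (2.08). Neither of 2 alternative activation genes tested, Mrc1 and Clec10a, was called.

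Genes of resident macrophages differed between TO and testis members in part. Of 26 genes, 13 were tested and 3 were higher in TOs (23.1%, against 5.01% of all genes), with a median log2 fold change of 0.88. Of the 13, 3 reached the filter in the TO libraries alone, so they could be tested only by being higher there. The called genes Igf1 and Fcrls are among these 3, so the share of 23.1% is a description. Igf1, insulin-like growth factor 1, had 768 and 745 CPM in TO members and 99.97 and 16.6 CPM in testis members (log2 fold change 3.87, SE 0.59, adjusted p = 1.95e-06). Selenop, a selenium carrier, had 2079 and 1797 CPM against 871 and 108 CPM (2.02, SE 0.55, adjusted p = 0.00405), but Selenop was called under only 9 of 18 alternatives, with 1.15 (no call) without testis replicate 2 and 4.05 without testis replicate 1. Fcrls, an Fc receptor-like protein, had 512 and 330 CPM against 71.4 and 33.3 CPM (2.97, SE 0.59), with no call without testis replicate 2 (2.46). Mrc1, the mannose receptor, had 863.5 and 921 CPM against 743 and 532 CPM and was not called (0.48, SE 0.41, adjusted p = 0.413). With the background subtracted, 0 genes of the list were called higher. Without TO replicate 1 some genes of the list were called lower in TOs.

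The change from testis to TO was compared between the high and the low MHC class II macrophages in 1 model of the 8 summed profiles. Of 10453 genes tested, 21 had a more positive change in the high class (0.201%) and 22 a more negative one (0.21%). Without testis replicate 2 the call remained for Mmp12, Ccl3, Ccl4 and Fgf13 only, in a fit with fewer samples in which other genes kept large differences (Spp1 at -5.61 and Folr2 at 3.15, for example). Without TO replicate 1 there were 68 calls. DESeq2 called 10.

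Several resident macrophage genes were lower in the members than in the low class of testes, and the gap between the classes was smaller in TOs. Igf1 had 768 and 745 CPM in the high class and 795 and 836 CPM in the low class of TOs, but 99.97 and 16.6 CPM in the high class and 517 and 553 CPM in the low class of testes (log2 difference of the changes 3.23, SE 0.65, adjusted p = 0.00032). Folr2, a folate receptor of tissue macrophages, had 655 and 513.5 CPM in the low class of testes and 57.1 and 0 CPM in the high class, and in TOs 319.9 and 28.6 CPM in the low class and 192 and 29.3 CPM in the high class (4.39, SE 0.81, adjusted p = 6.48e-05). Vsig4, a complement receptor, had 485 and 1091 CPM in the low class of testes against 128.5 and 8.32 CPM in the high class (4.65, SE 0.87, adjusted p = 8.89e-05). Without testis replicate 1 Folr2 was at 12.17 and Vsig4 at 7.95, and without testis replicate 2 Vsig4 was at 2.79. In TOs Vsig4 was low in both classes, at 75.5 and 3.31 CPM in the low and 64.0 and 11.5 CPM in the high class. Selenop and Mertk were called in the same direction, which made 5 of 24 resident genes tested, against 0.201% of all genes tested. Apoe, Cd63, Ctsb, Ctsd, Gas6 and Blvrb were also called in this direction. None of these genes kept the call without testis replicate 2.

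The opposite pattern was seen for Spp1, Mmp12, Ccl3, Ccl4, Cd9 and Ccr2. Spp1, osteopontin, had 4292 and 638 CPM in the low class of TOs and 2.32 and 1.53 CPM in that of testes, but 159.9 and 432 CPM against 28.6 and 166 CPM in the high class (-7.45, SE 0.90, adjusted p = 1.91e-12). Ccl4, a chemokine that attracts T cells and monocytes, had 1352 and 478 CPM in the low class of TOs and 44.1 and 18.3 CPM in that of testes, and 159.9 and 475 CPM against 386 and 249.5 CPM in the high class (-4.41, SE 0.59, adjusted p = 4.47e-10). Ccr2 was at 271 and 482 CPM in the high class and at 34.8 and 9.17 CPM in the low class of testes, and at 30.6 CPM or less in both classes of TOs (-2.98, SE 0.63, adjusted p = 0.00103). For Spp1 and Ccl4 the distance between TOs and testes was smaller in the high than in the low class. For Mmp12 (-8.81) the difference was -0.02 without testis replicate 1, which held all its UMIs in testis members.

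**Figure D5:**
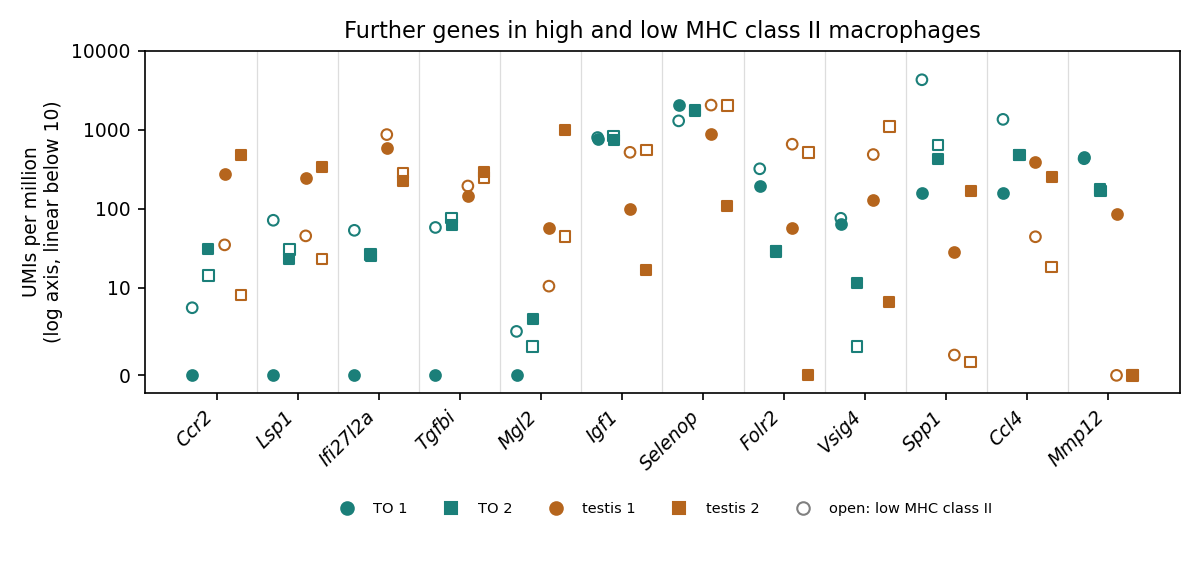
CPM of 12 further genes in high (filled) and low (open) MHC class II macrophages of TO replicate 1 (green circles), TO replicate 2 (green squares), testis replicate 1 (brown circles) and testis replicate 2 (brown squares), on a log axis that is linear below 10. Ccr2 and Lsp1 are highest in the filled testis symbols, and Folr2 and Vsig4 are highest in the open testis symbols, with Vsig4 at 485 and 1091.

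Across libraries, the high class was set against the low class as a description, since the rule split the cells on class II. Of 4512 genes with at least 50 CPM in either class, 268 were higher and 652 lower in the high class of all 4 libraries, and 2 were more than 2-fold higher and 3 less than 0.5-fold in each (with 10 CPM added to both). Cd74 was higher by 6.94, 4.70, 5.83 and 6.72 on the log2 scale in TO replicates 1 and 2 and testis replicates 1 and 2. H2-DMb1 was higher by 2.35, 1.99, 1.69 and 3.62. H2-DMa, Il1b, Baiap2, Phlpp1, Neurl3 and Bcl2a1d came next. Il1b, interleukin 1 beta, had between 41.6 and 96.0 CPM in the high class and between 1.53 and 24.3 CPM in the low class.

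Lower in the high class of every library were Ednrb, Hist1h2ap, Cbr2, F13a1, Acta2, Fabp3, Pank1 and Fhl2. F13a1, a coagulation factor subunit made by resident macrophages, had 2069 and 1649 CPM in the low class of testes and 428 and 33.3 CPM in the high class, and 252 and 94.5 CPM against 128 and 35.7 CPM in TOs. Cbr2, a carbonyl reductase, had 896 and 645 CPM against 186 and 33.3 CPM in testes. Ednrb, the endothelin receptor B, had no UMI in the members of TO replicate 1 and testis replicate 2. Acta2, Fabp3, Pank1 and Fhl2 had higher CPM in the other cells of TOs than in either macrophage class.

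Members were also compared by their own class II level, as a description only, since the rule used the same class II values. When the members of a library were divided at the median of class II UMIs per 10000, Cd74 had 1111 CPM in the lower and 8101 CPM in the upper part of testis replicate 1, and 1596 and 4916 CPM in TO replicate 2. In testis replicate 1 the lipid-handling list summed to 13330 CPM in the lower and 3632 CPM in the upper part, and the resident list to 6666 and 2452 CPM. In TO replicate 2 the lipid-handling list stayed at 34170 and 32790 CPM, and in testis replicate 2 at 3901 and 4552 CPM. The resident list had 6170 and 6460 CPM in TO replicate 2 and 3052 and 3317 CPM in testis replicate 2. In TO replicate 1, with 3 members in each part, the resident list had 9323 CPM in the lower and 5949 CPM in the upper part. Its lipid-handling list had 53010 and 51240 CPM. The gap between the parts of testis replicate 1 was thus not repeated in the other testis library. Mgl2 had 881 and 1147 CPM in the 2 parts of testis replicate 2, where most of its UMIs were.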

How the data were processed

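Each library's deposited matrix contains unnormalised UMI counts, which the authors made with Cell Ranger 7.1.0 against mm10 per the submitters' processing notes. A barcode was used if it had between 1000 and 5000 genes and no more than 20000 UMIs, of which mitochondrial genes made up 10% or less. Doublets were not removed except in an alternative with Scrublet (scanpy 1.11.5). The members and the gene lists were chosen with earlier results of these data known.

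Counts were summed per library and class and fitted with the edgeR quasi-likelihood test (edgeR 4.0.16, R 4.3.3; TMM, filterByExpr with a minimum count of 10), without a replicate block. The 10 genes of the rule and 27 genes at 5 times or more the CPM in other cells were left out of the calls. The interaction was fitted over the 8 sums with library as a term. The script was tested on simulated data.

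Named genes were the rule genes, the 12 called genes of largest fold in each direction with at least 50 CPM, in each list the 4 of highest CPM and up to 4 called genes of largest fold, the 5 interaction genes in each direction, the 8 genes in each direction for high against low, and other cell types' markers. Some of these genes are not reported here. Alternatives covered DESeq2 1.42.0, scaling, filters, thresholds, depth, background and left-out libraries. Shares were compared with an exact permutation test (scipy 1.17.1). Promoters came from RefSeq GRCm38.p6.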

Additional observations from a re-analysis of the deposited data

Results flagged for a closer look

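For 9 genes the change from testis to TO differed between the high and the low MHC class II macrophages by the interaction term of the edgeR model, among those of largest size in each direction of the 43 called, and each is given as a log2 difference of the changes, high minus low. No explanation of these differences was tested.

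The change was more positive in the high than in the low class for 4 of them, with differences that were 5.51 for Pdgfc (SE 1.06), 4.65 for Vsig4 (SE 0.87), 4.59 for Ifit3 (SE 1.03) and 4.39 for Folr2 (SE 0.81). Pdgfc, a platelet-derived growth factor, had 0 and 8.32 CPM in testis members against 183 and 298 CPM in the low class of testes, and 32.0 and 67.5 CPM against 63.2 and 67.2 CPM in TOs. All 4 lost the call without testis replicate 2 (11.11 for Pdgfc, 2.79 for Vsig4, 4.15 for Ifit3 and 3.15 for Folr2) and without TO replicate 2 (4.19, 3.21, 4.79 and 3.60 in the same order). Ifit3 was called under only 8 of 18 alternatives and lost the call whichever library was left out, with 4.26 without TO replicate 1 and 5.74 without testis replicate 1. Without testis replicate 1 Vsig4 was at 7.95 and Folr2 at 12.17, and with a class II threshold of 3 Pdgfc was at 2.55.

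The change was more negative in the high than in the low class for 5 of them, with differences that were -8.81 for Mmp12 (SE 1.82), -7.45 for Spp1 (SE 0.90), -4.79 for Fgf13 (SE 0.71), -4.41 for Ccl4 (SE 0.59) and -4.32 for Atp8b4 (SE 0.94). Fgf13, of the fibroblast growth factor family, had 0 and 80.2 CPM in TO members and 186 and 99.8 CPM in testis members, against 170 and 105 CPM and 11.6 and 4.59 CPM in the low class. A negative difference does not mean a lower level in TO members, since Mmp12 had 448 and 178 CPM in TO members and 85.7 and 0 CPM in testis members, and Spp1 overlapped between them (159.9 and 432 CPM against 28.6 and 166 CPM). Mmp12 had no UMI in the low class of either testis library, so its fitted size is set by the floor, and it was at -0.02 without testis replicate 1. Ccl4 was called under each of 18 alternatives, with -6.83 without TO replicate 2, where Fgf13 was at -14.02. Some of the alternatives reused the main fit and could not lose the call. Spp1 lost the call without testis replicate 2 (-5.61) and Atp8b4 without testis replicate 2 (-2.82) or TO replicate 2 (-3.77). Atp8b4 also lost it with the replicate number as a block (-5.03). With DESeq2, only Ccl4 and Fgf13 of the flagged genes in both directions were called. Spp1 was at -8.02 and Atp8b4 at -4.30 there, without a call.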

How the results depend on the processing

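The difference in the share of kept cells ranged from -0.280 to 0.965 percentage points when 1 library was left out, and turned its sign without TO replicate 2. Genes higher in TO members, 102 as reported, numbered 43 with DESeq2, 59 and 60 with a class II threshold of 10 and 3, 57 with at least 3 class II UMIs (an alternative chosen after seeing the data), 17 with sums thinned to the smallest, 2 with the background subtracted, 175 at an adjusted p of 0.05, and 44 to 136 with 1 library left out. Genes lower, 418 as reported, numbered 876 with any count, 205 when genes were left out from 2 times the CPM of other cells, 66 with thinned sums, 1 with the background subtracted, and 143 to 547 with 1 library left out. Interaction calls, 43 as reported, numbered 10 with DESeq2, 117 without TMM, 25 with thinned sums, 86 at an adjusted p of 0.05, and 4 to 68 with 1 library left out. The cause of these changes was not tested, except that thinned sums and left-out libraries hold fewer UMIs or samples. With the replicate number as a block, 130 genes were higher, 427 lower and 47 called in the interaction. Deviations of same-numbered samples from their group means correlated at r = 0.0915 over 2071 genes. With only 2 pairs, this cannot tell whether same-numbered samples share a batch. Of 60 named genes called between TO and testis members, none reversed under 18 alternatives, 12 were called whenever they had a value and 48 lost the call in some. Some alternatives reused the main fit and could not reverse a gene. The 12 were Fabp5, Ctsl, Prm1, Prm3, Tnp1, Tnp2, Smcp, Gm3417, Fam229a, Cypt4, Rnf151 and Scp2d1. All but Fabp5 and Ctsl were higher in the other testis cells than in the testis members, over both testis libraries together. Ctsl was higher in the other TO cells than in the TO members. The smallest sum, 31267 UMIs in TO replicate 1, limits what could be seen for genes of low level.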

Other observations

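Genes of the cell cycle and of energy metabolism were also measured in the members. Of 3 cell division genes that passed the filter, 2 were lower in TO members, against 20.6% of all genes. Both reached the filter in the testis libraries alone, so they could be tested only by being lower in TOs. Ccnb2, a cyclin of mitosis and meiosis, had 0 and 5.09 CPM in TO members and 186 and 183 CPM in testis members (log2 fold change -5.10, SE 0.60), and Stmn1, a regulator of microtubules, had 32.0 and 28.0 CPM against 129 and 241 CPM (-2.74, SE 0.56). Ccnb2 lost its call without TO replicate 2 (-6.78) and without testis replicate 2 (-5.13). Stmn1 lost it without TO replicate 2 (-2.57), with DESeq2 (-2.83) and with a class II threshold of 3 (-0.89). Of 7 glycolysis and hypoxia genes tested, Hk1, a hexokinase that also reached the filter in the testis libraries alone, was lower (32.0 and 19.1 CPM against 214 and 175 CPM, -3.22, SE 0.56), with no call without TO replicate 2 (-2.58), without testis replicate 2 (-3.30) or with DESeq2 (-3.31). Testis members also held more RNA of spermatids, and its part in these values was not tested.

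None of 14 immediate-early genes tested was called. Fos had 736 and 404 CPM in TO members and 614 and 516 CPM in testis members, and Jund had 1023 and 1158 CPM against 1100.0 and 948 CPM. Of 3 matrix remodelling genes tested, Mmp12 was higher and Tgfbi lower in TO members, against 5.01% and 20.6% of all genes, and each reached the filter only in the condition where it was higher.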
